A study of Mus musculus with 2 samples.

Results

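Prostaglandins are lipid mediators made from arachidonic acid, which phospholipases release from membranes. The cyclooxygenases turn it into an unstable endoperoxide, and terminal synthases turn that into prostaglandin E2, prostaglandin D2 or prostacyclin. Prostacyclin is a known product of vascular endothelium that widens vessels and restrains platelets, and the EP2, EP4 and IP receptors answer their ligands through the stimulatory G protein and cyclic AMP. The expression of 9 mouse genes of this pathway is described here, taken by symbol from the gene tables of both libraries of the series. They are the cyclooxygenase genes Ptgs1 and Ptgs2, the terminal synthase genes Ptgis, Ptges and Ptgds, the receptor genes Ptger2, Ptger4 and Ptgir, and Hpgd, whose enzyme starts prostaglandin breakdown. Of these, 8 were among the 17333 genes listed in either table, and 7 were listed in both. Ptgds was listed in neither, which counts as 0 reads, and Hpgd in the Procr+ library alone.

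The series holds 2 RNA-seq libraries of cells freshly sorted from mammary glands of adult virgin mice, 8 weeks old. Both populations were gated as Lin-, CD105+, CD31+ and Sca1+, and were then divided by Procr, the protein C receptor of endothelium, into 1 Procr+ and 1 Procr- library. No treatment or genetic change is named for either, and the strain and the number of animals in a library were not given in the sources used here. The question posed is which genes set Procr-expressing vascular endothelial cells apart from those labelled as not expressing Procr. With 1 library per group there is no replicate error and no test, so every difference below compares these libraries and not the conditions, and brackets hold 95% counting intervals only.

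The depth was 9.22 M unique reads in the Procr+ and 9.57 M in the Procr- library. Procr itself was 8.96-fold higher (8.57 to 9.38) in the Procr+ library, at 1321 against 147 RPKM. Its transcript was thus not absent from the library labelled Procr-, where it exceeded 97.5% of the listed genes. The endothelial label was met less well by the library labelled Procr-. There, 20 pan-endothelial markers summed to 542 RPKM (reads per kb of gene and per M reads) against 5178 RPKM in the Procr+ library. All 20 were at least 2-fold higher in the latter, Pecam1 (CD31) by 13.5-fold (12.9 to 14.2) and Eng (CD105) by 10.3-fold (9.72 to 10.9). The median of the 20 was 10.1-fold, against 8.96-fold for Procr. The third antigen of the gate, Sca1, went the other way. Its gene Ly6a reached 486 RPKM in the Procr- library against 203 RPKM in the Procr+ library, a difference of 2.40-fold (2.27 to 2.53). The 16 mammary epithelial markers summed to 19453 RPKM in the Procr- and 910.1 RPKM in the Procr+ library. Of these, 14 were at least 2-fold lower in the Procr+ library. The 14 mural cell markers summed to 1768 against 224 RPKM, with 13 higher in the Procr+ library, and the 8 fibroblast markers to 172 against 731 RPKM, with 7 lower there. The part that these cell types had in any result below was not tested. None of the markers of these 4 lists was at 0 reads in either library.

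The cyclooxygenase genes went opposite ways. Ptgs1 (chr2:36216742-36258593, GRCm38), the enzyme most tissues make constitutively, was the dominant cyclooxygenase transcript in the Procr+ library. Ptgs2 (chr1:150100031-150108234), the form known for its induction by cytokines and growth factors, was dominant in the Procr- library. In these bulk samples, fewer cells with a transcript and less of it per cell cannot be told apart. Ptgs1 was at 41.3 RPKM from 1091 reads in the Procr+ library and at 2.23 RPKM from 61 reads in the Procr- library. In RPM (reads per M reads of the library), the measure of every fold value below, it was thus 18.6-fold higher (14.3 to 24.4) in the Procr+ library. The log2 difference was 3.71 on the RPKM + 1 scale. Genes past 2-fold are counted on that scale unless stated. Of the 12509 genes with at least 1 RPKM in either library, only 38 had a higher log2 difference than Ptgs1. Ptgs2 was at 3.69 RPKM from 141 reads in the Procr+ and 39.5 RPKM from 1568 reads in the Procr- library. That is 10.7-fold higher (9.02 to 12.8) in the Procr- library, a log2 difference of −3.11, and 281 genes lay lower on that scale.

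Scaled to total reads, the summed cyclooxygenase levels were close, at 45.0 RPKM in the Procr+ and 41.7 RPKM in the Procr- library. That closeness depends on the scaling. The makeup of the sum differed between the libraries, and the part of their unlike cell types in this was not tested. Ptgs1 supplied 91.8% (90.4 to 93.1) of the sum in the Procr+ library and 5.34% (4.11 to 6.79) in the Procr- library. Within the Procr+ library Ptgs1 stood 11.2-fold (9.40 to 13.5) above Ptgs2 in RPKM, and within the Procr- library Ptgs2 stood 17.7-fold (13.7 to 23.3) above Ptgs1. The read ratio of Ptgs1 to Ptgs2 therefore differed 198-fold between the libraries (144 to 275). This value holds under any scaling of a whole library, since scaling cancels within it.

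**Figure D1:**
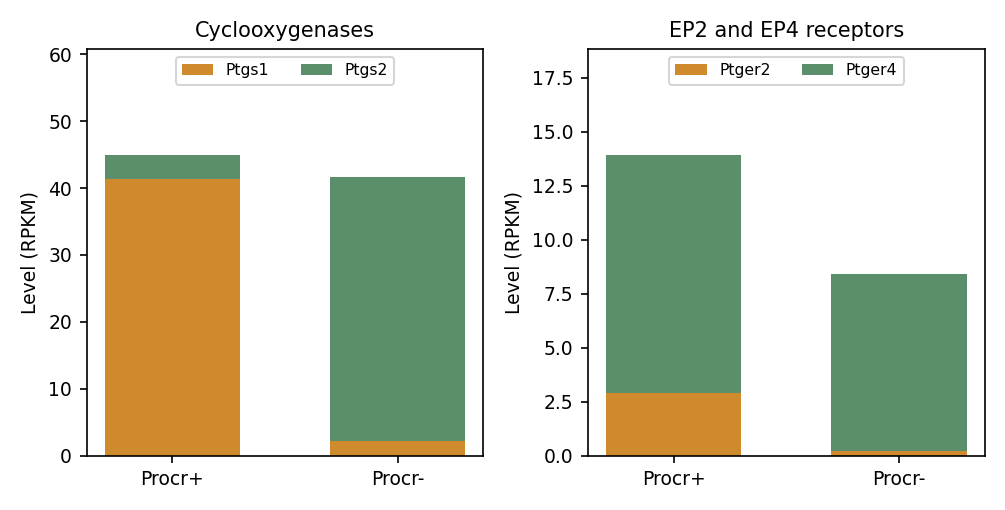
Levels in RPKM (vertical axes, from 0) of 2 pairs of genes in the Procr+ and the Procr- library, stacked, with 1 library per bar and no error bars. On the left, Ptgs1 and Ptgs2 sum to 45.0 and 41.7 RPKM with opposite makeup; on the right, Ptger4 makes up most of both bars and Ptger2 is visible mainly in the Procr+ one.

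The windows upstream of these genes differ in their letters. The 250 bases before the RefSeq start site in GRCm38.p6 are shown 5′ to 3′ for the cyclooxygenase genes and for Ptges, the gene that shared the direction of Ptgs2. Capitals mark matches to GGGCGG, the GC box, on either strand. They lie at chr2:36230176-36230425 on the plus strand, chr1:150099781-150100030 on the plus strand and chr2:30903298-30903547 on the minus strand. RefSeq spans Ptgs1 and Ptges beyond these starts, so other start sites are annotated for both.
Ptgs1: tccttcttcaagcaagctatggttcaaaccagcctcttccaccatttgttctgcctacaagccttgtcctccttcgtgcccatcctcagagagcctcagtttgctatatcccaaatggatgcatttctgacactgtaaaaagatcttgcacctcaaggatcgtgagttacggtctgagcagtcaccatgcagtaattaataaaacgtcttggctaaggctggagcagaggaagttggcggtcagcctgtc
Ptgs2: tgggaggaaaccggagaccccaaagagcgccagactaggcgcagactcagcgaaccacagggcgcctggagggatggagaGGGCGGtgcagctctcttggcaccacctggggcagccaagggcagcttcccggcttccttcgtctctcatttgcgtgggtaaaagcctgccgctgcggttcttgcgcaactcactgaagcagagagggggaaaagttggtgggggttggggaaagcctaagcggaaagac
Ptges: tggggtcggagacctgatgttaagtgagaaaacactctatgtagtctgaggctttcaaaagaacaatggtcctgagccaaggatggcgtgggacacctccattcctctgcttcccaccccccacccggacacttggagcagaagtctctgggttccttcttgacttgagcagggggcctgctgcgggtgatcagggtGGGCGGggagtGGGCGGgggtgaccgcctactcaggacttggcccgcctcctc
The Ptgs1 window holds 48.0% G and C, that of Ptgs2 61.6% and that of Ptges 59.6%, against a median of 52.4% over 32851 RefSeq windows of the mouse. A search of both strands over these bases and the 50 that follow the start covered 6 motifs. Of all windows, 13.6% hold TATAAA, the core of the TATA box, 37.4% hold the box CCAAT and 35.7% hold GGGCGG. The cyclic AMP response element TGACGTCA is in 1.79% of windows, the AP-1 site TGANTCA in 7.81% and the E-box CACGTG in 7.15%. None of the 6 was found in the Ptgs1 window. Ptgs2 has the GC box once, at −170 to −165 before the start, and the E-box at 17 to 22 after it. Ptges has the GC box in 2 places, from −53 and from −42. The other motifs were not found in the windows of Ptgs2 and Ptges, and no matches in these windows overlap. The window of Ptgir, which like Ptgs1 was higher in the Procr+ library, has 63.6% G and C and the GC box in 2 places, from −76 and from −13. A match is a description of the letters only.

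The terminal synthase genes were led by Ptges (chr2:30889471-30931020), which encodes the inducible microsomal enzyme that makes prostaglandin E2. It was higher in the Procr- library, as Ptgs2 was. Ptges was at 10.1 RPKM from 340 reads in the Procr+ library and at 49.2 RPKM from 1716 reads in the Procr- library. The difference was 4.87-fold (4.33 to 5.48) in favour of the Procr- library, a log2 difference of −2.18. Ptgis (chr2:167203194-167252150), the prostacyclin synthase gene, had few reads in both libraries. It had 7 reads (0.434 RPKM) in the Procr+ and 18 reads (1.07 RPKM) in the Procr- library. Its ratio, 2.48-fold higher in the Procr- library, had an interval from 0.988 to 7.02, so a difference was not detectable at this depth. Ptgds (chr2:25466709-25470110), the lipocalin-type prostaglandin D synthase gene, was not listed, and 0 reads allow up to 0.325 RPM in the Procr+ and 0.314 in the Procr- library (3 reads). Hence Ptges stood 23.3-fold (11.2 to 58.4) above Ptgis in RPKM even in the Procr+ library.

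Of the receptor genes, Ptger2 and Ptgir were higher in the Procr+ library and Ptger4 differed by less than 2-fold. Ptger2 (chr14:44988111-45003820), the EP2 receptor of prostaglandin E2, had 101 reads (2.91 RPKM) in the Procr+ and 7 reads (0.194 RPKM) in the Procr- library. Its RPM differed 15.0-fold (7.01 to 38.2), with a log2 difference of 1.71, since the added 1 RPKM shrinks the ratios of low genes. Reads covered 49.4% of the listed length of Ptger2 in the Procr+ library. The median coverage was 67.2% over 258 genes within 20% of its reads and its length there, and 8.14% of these genes were covered less. Ptgir (chr7:16906490-16910905), the prostacyclin receptor IP, was at 7.48 RPKM from 230 reads in the Procr+ and 0.847 RPKM from 27 reads in the Procr- library. It was 8.84-fold higher (5.92 to 13.7) in the Procr+ library, a log2 difference of 2.20. Receptor and synthase of prostacyclin were thus unequal there, with Ptgir at 7.48 RPKM and Ptgis at 0.434 RPKM.

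Ptger4 (chr15:5233399-5244187), the EP4 receptor of prostaglandin E2, had the least difference of the receptors. It was at 11.0 RPKM from 288 reads in the Procr+ and 8.24 RPKM from 223 reads in the Procr- library. It was 1.34-fold higher (1.12 to 1.60) in the former, an interval that excludes both equality and 2-fold under scaling to total reads only. Its log2 difference was 0.38, against 0.76 centred on the median of all genes tested and −2.91 centred on the pan-endothelial median. Between the prostaglandin E2 receptors, Ptger2 made up 20.9% (17.2 to 24.9) of the summed RPKM of Ptger2 and Ptger4 in the Procr+ library and 2.30% (0.929 to 4.71) in the Procr- library. The read ratio of Ptger2 to Ptger4 differed 11.1-fold (5.07 to 29.0) between the libraries.

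Hpgd (chr8:56294552-56321046), the 15-hydroxyprostaglandin dehydrogenase gene, was at the limit of detection. It had 1 read in the Procr+ and 0 reads in the Procr- library. For its length, 3 reads correspond to 0.189 RPKM in the Procr+ and 0.182 RPKM in the Procr- library. No fold is given for it.

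**Figure D2:**
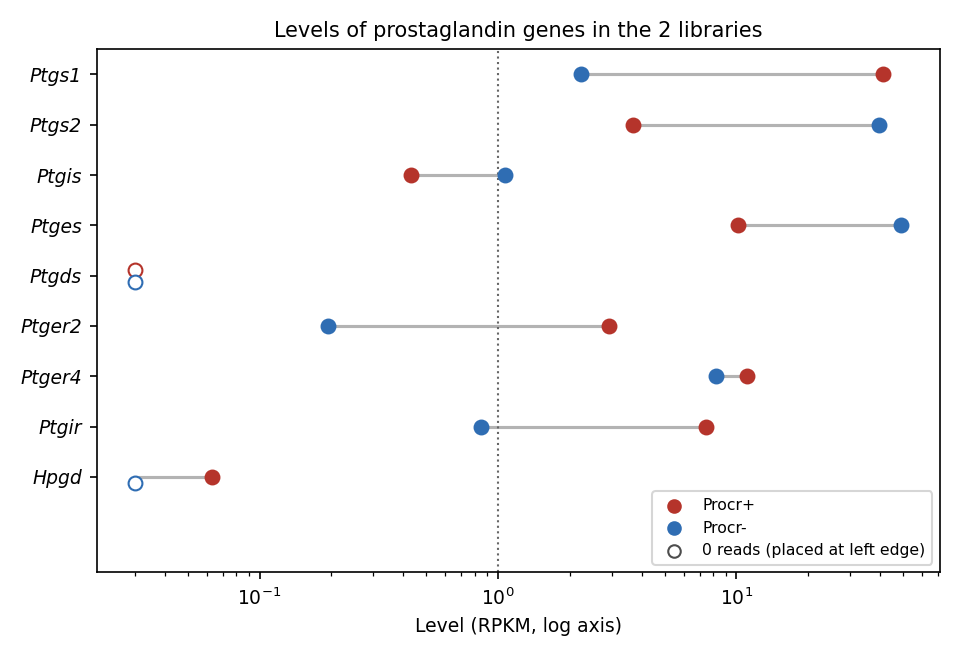
Level in RPKM (horizontal log axis) of the 9 genes in the Procr+ and Procr- library, 1 library per point; open circles at the left edge have 0 reads, and the dotted line is 1 RPKM. Ptgs1, Ptger2 and Ptgir lie to the right in the Procr+ library, Ptgs2 and Ptges in the Procr- library, and the points of Ptger4 lie close together.

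The order of the levels was different in the libraries. In the Procr+ library Ptgs1 was highest, at 41.3 RPKM (38.9 to 43.8), and Ptger4, at 11.0 RPKM (9.80 to 12.4), came next. Ptges, at 10.1 RPKM (9.07 to 11.2), did not differ from Ptger4 beyond the counting intervals, which overlap. Ptgir was at 7.48 RPKM (6.55 to 8.51), Ptgs2 at 3.69 RPKM (3.10 to 4.35) and Ptger2 at 2.91 RPKM (2.37 to 3.53), and the intervals of Ptgs2 and Ptger2 overlap. Ptgis and Hpgd followed. In the Procr- library Ptges was highest, at 49.2 RPKM (46.9 to 51.6), above Ptgs2 at 39.5 RPKM (37.6 to 41.5). A gap separated these from Ptger4 at 8.24 RPKM (7.19 to 9.39) and Ptgs1 at 2.23 RPKM (1.70 to 2.86). Ptgis, at 1.07 RPKM (0.637 to 1.70), and Ptgir, at 0.847 RPKM (0.558 to 1.23), had overlapping intervals, and Ptger2 was last among the genes with reads. Relative to all listed genes, Ptgs1 exceeded 89.9% of them in the Procr+ library and 38.6% in the Procr- library, and Ptgs2 exceeded 51.2% and 88.8%.

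Of the 9 genes, 7 reached 1 RPKM in at least 1 library and 2, Ptgds and Hpgd, did not. Ptgs1, Ptgir and Ptger2 were 2-fold or more higher in the Procr+ library on the log2(RPKM + 1) scale, Ptgs2 and Ptges at least 2-fold lower, and Ptger4 and Ptgis neither. Over all 12509 genes tested in this way, 13.1% were at least 2-fold higher and 23.7% at least 2-fold lower. The median log2 difference was 0.38 over the 7 genes and −0.38 over all genes tested. Taken relative to the latter, the log2 differences were 4.09 for Ptgs1, 2.58 for Ptgir, 2.09 for Ptger2, 0.76 for Ptger4, −0.15 for Ptgis, −1.80 for Ptges and −2.73 for Ptgs2. Higher genes made up 35.7% of the 2-fold calls of all genes as deposited and 59.6% after centring on that median.

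**Figure D3:**
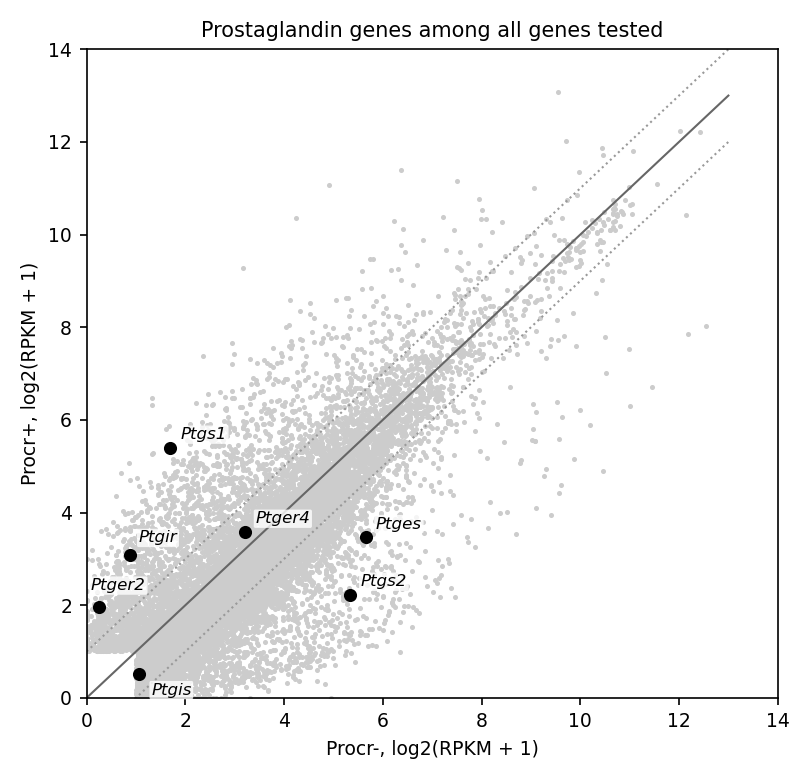
Level as log2(RPKM + 1) in the Procr- (horizontal) and Procr+ (vertical) library, 1 point per gene for the 12509 genes tested in grey and 7 prostaglandin genes in black; the solid line is equality and the dotted lines are 2-fold. Ptgs1 and Ptgs2 lie at the opposite edges of the cloud, and Ptger4 lies inside the dotted lines.

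Beside the markers of the cell types, the ratio of Ptgs1 stood at the upper end of both the endothelial and the mural markers. The pan-endothelial markers ran from 3.41-fold (Ets1) to 16.8-fold (Plvap) higher in the Procr+ library, with a median of 10.1-fold. All 20 had a lower read ratio than Ptgs1, although its interval, 14.3 to 24.4, takes in the highest of them. Ptger2 had a higher ratio than 17 of the 20 and Ptgir than 7. On the log2(RPKM + 1) scale, centred on the pan-endothelial median, Ptgs1 was at 0.42, Ptgir at −1.10 and Ptger2 at −1.58. The mural markers had a median of 7.27-fold, with all 14 below Ptgs1, the nearest being Vtn with 955 against 55 reads, and Ptger2 exceeded 13 and Ptgir 8 of them. Ptgs1 is also a gene of platelets, and there Pf4 had 14 reads in the Procr+ and 16 in the Procr- library, Gp9 had 2 and 1, and Ppbp had 1 and 0. The 6 platelet markers summed to 6.56 and 11.8 RPKM, of which Itga2b made up 3.38 and 8.12 RPKM. Of the 2 measured, Itga2b was at least 2-fold lower in the Procr+ library, Pf4 was not past 2-fold, and none was higher. The part of platelets in the level of Ptgs1 was not tested.

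Ptgs2 and Ptges stood at the other end, between the endothelial and the epithelial markers. The 16 epithelial markers were 1.36-fold to 33.6-fold higher in the Procr- library, with a median of 22.8-fold. Krt14 and Krt5 were the only 2 with a weaker tilt to the Procr- library than Ptgs2 and Ptges, at 10.7-fold and 4.87-fold, and the other 14 had a stronger one. Fibroblast markers were 1.73-fold to 16.1-fold higher in the Procr- library. Of these 8, 2 had a stronger tilt to it than Ptgs2 and 5 than Ptges. Macrophage markers summed to 938 RPKM in the Procr+ and 279 RPKM in the Procr- library, and 6 of 7 measured were at least 2-fold higher in the former. The part of macrophages in the level of Ptgs2 was not tested. Cd14 alone made up 869 and 250.1 RPKM of these sums, and the other 8 markers summed to 69.0 and 29.3 RPKM. Mast cell markers summed to 6.34 RPKM in the Procr+ and 3.04 RPKM in the Procr- library, with Ms4a2 at 0 reads in both. Mesothelial markers summed to 1.74 and 0.793 RPKM, with Msln at 0 reads in both, and adipocyte markers to 4.32 and 3.12 RPKM. Lymphatic endothelial markers summed to 13.2 and 67.4 RPKM, with 2 of 4 measured lower in the Procr+ library and Ccl21a at 0 reads in both. Lyve1 alone made up 3.95 and 55.3 RPKM of these sums. Prox1 had 58 and 84 reads, and Flt4 was 1.90-fold higher (1.59 to 2.27) in the Procr+ library. Schwann cell markers summed to 10.7 and 59.7 RPKM, with 2 of 4 lower and 1 higher.

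**Figure D4:**
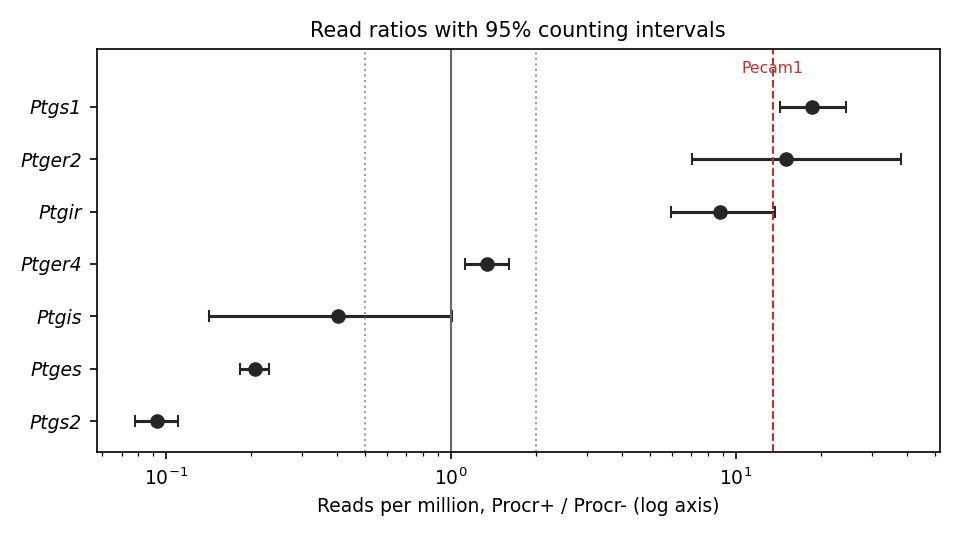
Ratio of RPM, Procr+ over Procr- (horizontal log axis), for the 7 genes with at least 1 RPKM in either library; bars are exact 95% counting intervals from 1 library per group. The solid line is equality, the dotted lines are 2-fold, and the dashed line is Pecam1 at 13.5-fold; the intervals of Ptgs1, Ptger2 and Ptgir lie above the 2-fold line and those of Ptgs2 and Ptges below the lower one.

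By level in both libraries, the genes most like Ptgs1 were Tmem255b, Bdkrb2 (the bradykinin B2 receptor) and Abcb1a (a drug efflux pump). Their distances on the log2(RPKM + 1) scale over the 2 libraries were 0.06, 0.25 and 0.33. Bdkrb2 was at 34.7 RPKM in the Procr+ and 2.36 RPKM in the Procr- library. Those most like Ptgs2 were Ephb3 (an ephrin receptor), F2rl1 (protease-activated receptor 2) and 0610011F06Rik, now named Mettl26, at distances of 0.10, 0.11 and 0.11. F2rl1 was at 3.83 RPKM in the Procr+ and 36.8 RPKM in the Procr- library.

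Around these 9 genes, 76 other genes of the pathway were looked at in 6 lists, of which 51 were measured. Of the 51, 13 (25.5%) were 2-fold or more higher in the Procr+ library and 11 (21.6%) lower, with a median log2 difference of 0.23. The shares over all genes, beside which each list count below stands, were 13.1% and 23.7%. In RPM but not on the log2(RPKM + 1) scale, Akr1b3 (2.07-fold, 1.27 to 3.46), Alox12 (2.91-fold, 1.74 to 5.05) and Pde4a (2.60-fold, 1.92 to 3.56) were also past 2-fold higher. In the same way, Ptgr2 (2.01-fold, 1.54 to 2.62) was lower. Each of these intervals includes 2-fold. Upstream, 10 of 16 genes of arachidonic acid release and handling were measured, with 1 higher, 3 lower and a median of −0.70. Pla2g4a, the cytosolic phospholipase A2 that supplies the cyclooxygenases, had 13 reads (0.495 RPKM) in the Procr+ and 228 reads (8.38 RPKM) in the Procr- library, 16.9-fold higher (9.69 to 32.2) in the latter. Anxa1, the annexin known as an inhibitor of phospholipase A2, had the highest level of the list, at 221 RPKM in the Procr+ and 1457 RPKM in the Procr- library, which is 6.60-fold (6.34 to 6.86) higher in the latter. Dagla, a diacylglycerol lipase, was 8.14-fold higher there (4.07 to 18.5) at 1.41 against 0.173 RPKM. Mgll, the monoacylglycerol lipase that can yield arachidonic acid, was 6.05-fold higher (5.47 to 6.72) in the Procr+ library, at 69.5 against 11.5 RPKM.

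Among the other prostanoid synthases, 5 of 9 were measured, with a median log2 difference of −0.41. On the log2(RPKM + 1) scale none was 2-fold higher and 2 were lower. The lower ones were Ptges2, a membrane-associated prostaglandin E synthase, at 3.08 against 9.50 RPKM, and Prxl2b (deposited as Fam213b), a prostamide and prostaglandin F synthase, at 3.32 against 11.3 RPKM. They were 3.08-fold (2.27 to 4.24) and 3.41-fold (2.15 to 5.62) higher in the Procr- library. Ptges3, the cytosolic prostaglandin E synthase and Hsp90 cochaperone, was the most abundant, with 1801 against 1717 reads. The thromboxane synthase gene Tbxas1 had 3 and 1 reads, and Hpgds, the haematopoietic prostaglandin D synthase gene, 7 and 6. Of the 6 other prostanoid receptor genes, only Ptger1, the EP1 receptor, reached 1 RPKM, at 9.59 in the Procr+ and 8.64 RPKM in the Procr- library. The thromboxane receptor gene Tbxa2r had 13 and 4 reads.

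Of the 5 genes of prostaglandin transport and breakdown, 1 was higher and 1 lower, beside 13.1% and 23.7% over all genes. The median log2 difference was −0.79. Abcc4, an exporter of prostaglandins and cyclic nucleotides, was 6.54-fold higher (5.59 to 7.68) in the Procr+ library, at 21.9 against 3.36 RPKM. Ptgr1, a prostaglandin reductase, was at 1.86 RPKM from 36 reads in the Procr+ and 11.1 RPKM from 224 reads in the Procr- library, a log2 difference of −2.09. Slco2a1, the prostaglandin uptake transporter, was the most abundant of the list, at 51.8 RPKM in the Procr+ and 85.6 RPKM in the Procr- library. Its level was thus well above that of Hpgd, the enzyme that acts on the imported ligand, in both libraries.

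Downstream of EP2, EP4 and IP, 21 of 26 genes of cyclic AMP signalling were measured, of which 7 were 2-fold or more higher in the Procr+ library and 3 lower, with a median log2 difference of 0.61. The count of lower genes was 1 instead of 3 after subtracting the median log2 difference over all tested genes, with upper-quartile scaling, or where the counting interval had to exclude 2-fold. The count of higher genes was 10 instead of 7 with that centring or the upper-quartile scaling, and 7 with the interval rule. Over all genes, these settings gave 2426, 2097 and 1532 higher and 1644, 2076 and 2512 lower. Centred on the pan-endothelial median, 0 of the list were higher and 17 lower, beside 10 and 12066 over all genes. This follows from subtracting that median. The adenylyl cyclase gene Adcy4 was 11.9-fold higher (10.8 to 13.3), at 146 against 12.2 RPKM. Rapgef3 and Rapgef4, the exchange factors EPAC1 and EPAC2 that bind cyclic AMP, stood 5.78-fold (4.81 to 7.00) and 6.26-fold (5.26 to 7.49) above their Procr- levels. The phosphodiesterase genes Pde3a and Pde4b, whose enzymes degrade it, did so by 14.9-fold (10.6 to 21.5) and 3.12-fold (2.99 to 3.25). Akap12, an anchor of protein kinase A, had the highest level of the list in the Procr+ library and was 12.6-fold higher (12.1 to 13.1) there, at 591 against 47.0 RPKM. In the Procr- library Gnas, the stimulatory G protein gene, was the highest, at 189 RPKM against 309 RPKM in the Procr+ library. Crem, a cyclic AMP-responsive transcription factor, was 4.20-fold higher (3.78 to 4.67). Past 2-fold higher in the Procr- library were the protein kinase A subunit genes Prkaca (2.26-fold, 1.84 to 2.79), Prkar2a (2.17-fold, 1.91 to 2.47) and Prkar2b (3.65-fold, 3.02 to 4.45). The other subunit genes of the list were higher in the Procr+ library, by ratios below 2-fold. They were Prkar1a (1.40-fold, 1.34 to 1.47), Prkar1b (1.62-fold, 1.30 to 2.03) and Prkacb (1.25-fold, 1.12 to 1.40). All of these stand beside the pan-endothelial median of 3.29 and the epithelial median of −4.32 on the log2 scale.

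The parallel lipoxygenase branch, which makes leukotrienes from the same fatty acid, had 9 of 14 genes measured, 4 higher, 2 lower and a median log2 difference of 0.86. The higher genes were the receptor genes Cysltr1, Ltb4r1 and Ltb4r2 and the gene Alox5ap. Cysltr1, a receptor of cysteinyl leukotrienes, had 205 reads (8.07 RPKM) in the Procr+ and 2 reads in the Procr- library, a ratio of 106-fold with a counting interval of 29.1 to 884. The leukotriene B4 receptor genes Ltb4r1 and Ltb4r2 had 72 against 11 reads and 26 against 1 read, and Alox5ap, which encodes the 5-lipoxygenase activating protein, had 34 against 6. The 5-lipoxygenase gene Alox5 itself had 2 and 1 reads. Higher in the Procr- library were Aloxe3, an epidermal-type lipoxygenase, by 8.55-fold (6.27 to 11.9), and Alox15, with 39 against 0 reads, at least 12.5-fold against a floor of 3 reads per library. Lta4h, the leukotriene A4 hydrolase gene, had the highest level, at 14.6 against 22.3 RPKM.

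**Figure D5:**
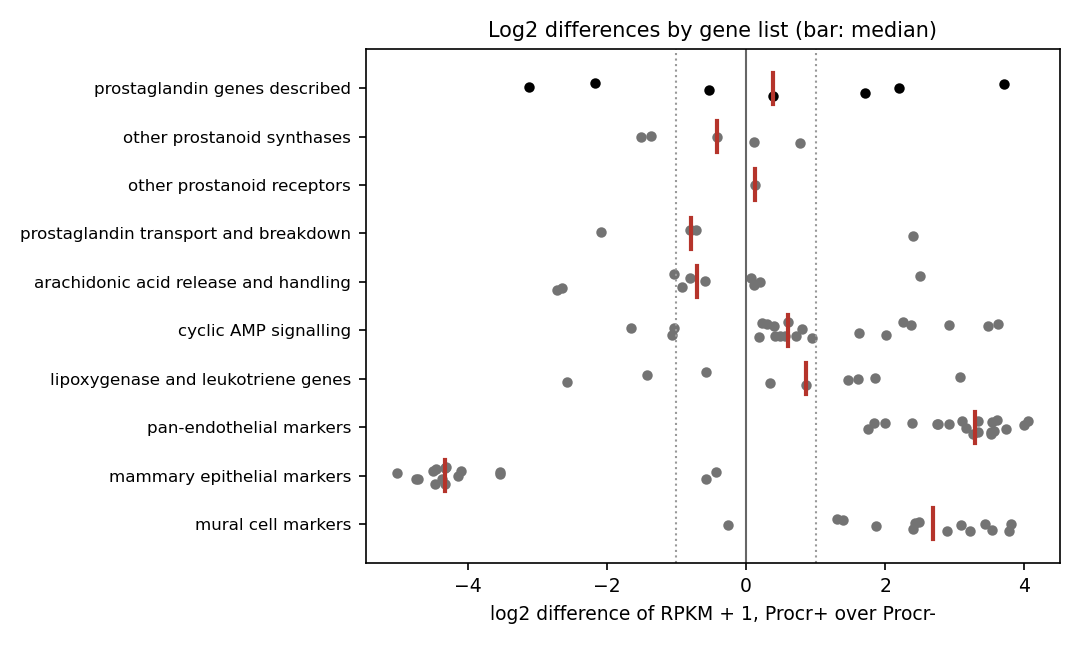
Log2 difference of RPKM + 1, Procr+ over Procr- (horizontal axis), of each measured gene in the prostaglandin set, 6 pathway lists and 3 marker lists (rows, points spread vertically only for legibility); red bars are medians and dotted lines are 2-fold. The prostaglandin genes run from −3.11 (Ptgs2) to 3.71 (Ptgs1), between the epithelial median of −4.32 and past the endothelial median of 3.29.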

How the data were processed

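Total RNA was extracted with Trizol and read on an Illumina HiSeq 2000; single reads with a unique place in mm10 were kept, per the labels' protocols. Aligner, counting tool, annotation and use of strand were not given in the sources used here. Read counts per gene were deposited by the authors and sum to the header totals of 9219995 (Procr+) and 9565002 (Procr-). The deposited RPKM values equal those counts per kb of listed length and per M reads. The deposited coverage is the percent of the listed length covered, per the file headers. Unique mapping lowers the counts of genes with near-identical copies. RefSeq (GRCm38.p6, the assembly of mm10; 17285 of 17333 genes matched by identifier) places another gene over Ptges and Ptgis alone of the 9 genes, and none of those is listed in the tables. Its promoter table held 8 of the 9.

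Genes not listed have 0 reads. With 1 library per group no test was run. The difference was log2 of RPKM + 1, Procr+ over Procr-, among genes that reached 1 RPKM in either library, called at 2-fold. Ratios of RPM (reads per M reads) have exact conditional binomial intervals, levels exact Poisson intervals, shares Clopper-Pearson intervals rescaled by length, and ratios of 2 genes between libraries conditional odds ratio intervals; all cover counting error only, and PCR copies are not independent molecules. The genes, lists and motifs were chosen with earlier results of these data known. Named are the 9 genes, each pathway list gene past 2-fold on the log2(RPKM + 1) scale, the most abundant gene of each list, and the 3 genes nearest in level to the highest and the lowest of the 9. Tbxas1, Hpgds, Tbxa2r, Alox5, Akr1b3, Alox12, Pde4a, Ptgr2, Prkar1a, Prkar1b and Prkacb were added after their values were seen. In simulated counts for this comparison (17333 genes), 100% of 200 genes changed 4-fold and 0.387% of 11897 unchanged genes were called. These counts held Poisson error only, so neither share covers variation between animals or preparations. The changed genes were drawn from those with a mean of at least 5 RPKM, so the first share does not cover lower genes such as Ptger2, Ptgir and Ptgis. Python 3.11.15, SciPy 1.17.1 and pandas 2.3.3 were used; other settings are given at the end.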

Additional observations from a re-analysis of the deposited data

How the results depend on the processing

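The counts of genes past 2-fold, the median of all genes and the log2 differences of the 7 genes measured were recomputed with pseudocounts of 0.1 and 0.5, without a filter, with a filter of 5 RPKM, centred on the median of all genes or on the pan-endothelial median, as TPM, with upper-quartile scaling, as RPM with a prior of 1 read, and by intervals that exclude 2-fold. Ptgs1 kept a positive log2 difference (0.42 to 4.19) and Ptgs2 (−6.41 to −2.73) and Ptges (−5.47 to −1.80) a negative one in every setting that gives a log2 difference. Centred on the pan-endothelial median, Ptger2 (−1.58) and Ptgir (−1.10) reversed, 0 of the 9 genes were higher and 6 lower, 10 genes in all were higher and 12066 lower, and 0 and 44 pathway list genes were; this follows from subtracting that median, and the median of all genes was −3.67. The filter of 5 RPKM dropped Ptger2 and Ptgis. Ptgis was called lower with a pseudocount of 0.1 and as RPM with a prior. Centred on the median of all genes (0.00), 2426 genes were higher and 1644 lower, and 18 pathway list genes higher and 7 lower. Upper-quartile scaling, which multiplies each library by a constant, gave 2097 higher and 2076 lower and a median of −0.12. No filter, which adds the genes below 1 RPKM in both libraries, gave a median of −0.16. What made the upper quartiles of the libraries differ was not tested. No paired analysis was possible because each group has 1 library, and leaving out a replicate was not possible for the same reason. Reads limit Ptgis, Hpgd, Ptgds and the Procr-negative level of Ptger2.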
